A study of Mus musculus with 12 samples.

Results

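The response of the liver to simvastatin was compared between female and male C57BL/6J mice, gene by gene, as the log2 fold change of statin over chow in females minus the same quantity in males. The genes were the 11584 autosomal genes among the 11968 of the deposited count table, chosen by their position alone, so that genes on the sex chromosomes did not enter the description. The 4 groups were female mice on chow, female mice on chow with simvastatin, male mice on chow and male mice on chow with simvastatin, with 3 livers each and 12 in all, after 4 weeks on the diet. The mice were wild type, of one inbred strain, and between 8 and 10 weeks old when the diets began. The sample labels give the dose as 0.1 g per kg of body weight, whereas the study's methods give the same figure per kg of food. The labels also name 1 diet formulation for all groups where the methods name a different one for each diet.

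Simvastatin blocks an early step of cholesterol synthesis and is taken up mainly by the liver. The liver also makes fatty acids from sugar after a meal and oxidises fatty acids to ketone bodies during a fast, and these programs usually run in opposite phases. Carbohydrate and insulin drive the first through the factors SREBP-1c and ChREBP. Free fatty acids drive the second through the nuclear receptor PPARα, whose targets in rodents include acyl-CoA thioesterases and Cyp4a hydroxylases.

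Each library held between 46066381 and 60419223 counts, and no pair of livers agreed within sampling noise (lowest chi-square per degree of freedom 44.4). The summed level of 8 hepatocyte markers lay between 77005 and 147360.4 CPM (read counts scaled to a common library size) in the 12 livers. Markers of fat and exocrine pancreas stayed at or below 2.71 CPM. The levels of single genes below were also scaled with TMM, a trimmed mean of log ratios, and the marker sums were not. Within the groups, 57.4% of the variance of 7641 genes lay along 1 axis, with female statin replicates 1 and 2 near its opposite ends (scores -0.265 and 0.275) and male statin replicate 1 at 0.277. Along this axis the genes' loadings had a Spearman rho of 0.452 with their exon length, a description across genes, whereas the difference in response had 0.0113. The part of transcript length in the results was examined with an offset only, given in the closing section. Leaving out 1 liver, among them these, moved many values by more than 1.5 times, and many of these values, though not all, are given beside the lists. In bulk tissue, fewer cells of a type and less RNA per cell cannot be told apart.

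At an adjusted p-value under 0.05, 0 autosomal genes differed between the sexes in their response (edgeR quasi-likelihood test, lowest adjusted p = 0.0997), and with limma the count was also 0, whereas DESeq2 called 120. Without female statin replicate 2, edgeR called 14. At an unadjusted p-value under 0.05, the rule by which genes are called below, 940 genes differed (8.11% of those tested). The response was more positive in females for 539 (4.65%) and more negative for 401 (3.46%), and the negative count was 628 without female statin replicate 1.

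For most of the called genes the fold changes of the sexes had opposite signs. Of the 940, 869 did (92.4%, against 54.4% of all autosomal genes). The fold change was positive in females and negative in males for 496 (4.28% of the genes tested), and negative in females and positive in males for 373 (3.22%, 581 genes without female statin replicate 1). A gene with opposite fold changes has a larger difference by construction, so the first share is a description of the called genes and not a test. The change in females was the larger for 761 of the 940 (81.0%, against 60.0% of all genes). Among the 869, 553 also had an unadjusted p-value under 0.05 in females only, 83 in males only, 43 in both sexes and 190 in neither. Of all autosomal genes, 6.01% were positive and 4.58% negative at that threshold in females, and 0.855% and 1.14% in males (1.99% together). At an adjusted p-value under 0.05 (edgeR), 12 autosomal genes changed in females (0.104%) and 0 in males. The 3 statin livers lay wholly above the chow livers in females and wholly below them in males for 72 genes (0.622%) and the reverse for 58 (0.501%). For 55 genes (0.475%) both sexes separated in the same direction. Within 1 sex, statin livers lay wholly above chow livers for 6.06% of genes in females and 3.64% in males, and wholly below for 5.99% and 4.34%.

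**Figure D1:**
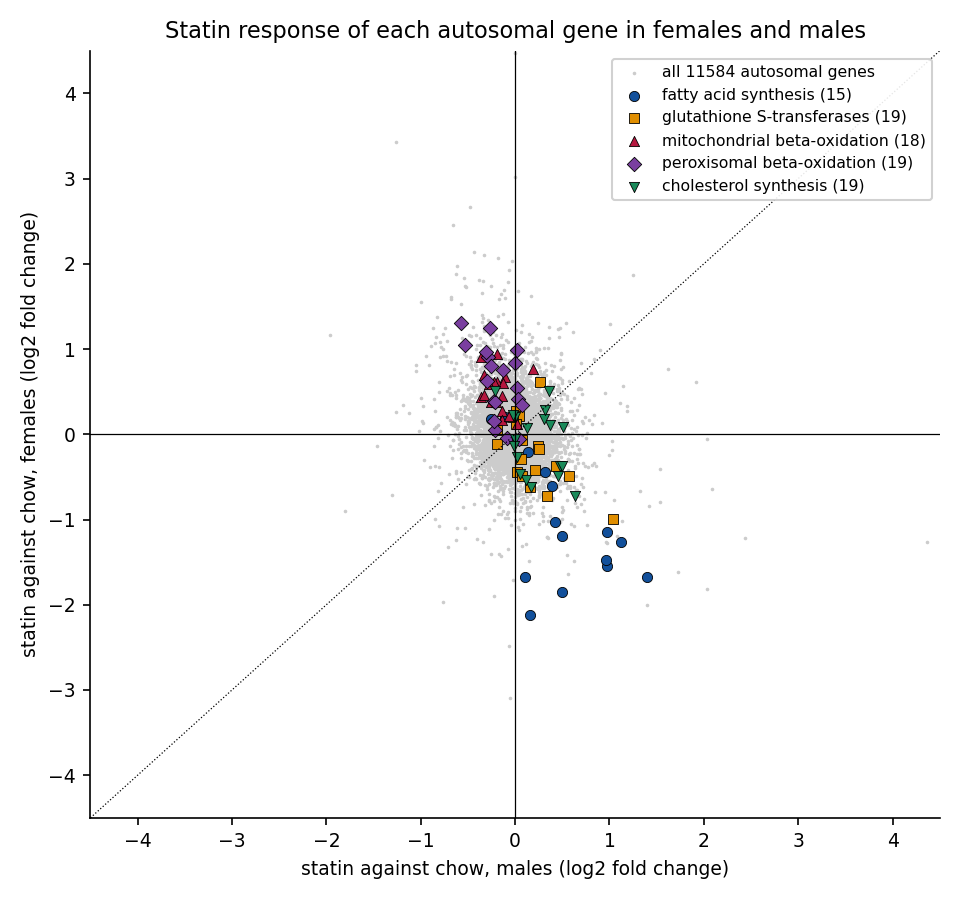
Log2 fold change of statin over chow in males (x axis) and females (y axis) for 11584 autosomal genes, with 5 function lists in colour and the number of tested members in the legend. Fatty acid synthesis genes lie mostly at the lower right and beta-oxidation genes at the upper left, and the dotted line marks equal responses.

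Functions were described with 49 gene lists. A list was called opposite where its median fold change differed in sign between the sexes and the share of its members called in that direction was at least 3 times the share among all genes. By this description 20 lists were opposite. It does not require a change called in males. With an unadjusted p-value under 0.05 in males, in the described direction, were 1 of 15 members in fatty acid synthesis and 1 of 18 in mitochondrial oxidation. The count was 1 of 19 in peroxisomal oxidation, 1 of 11 in ketogenesis, 0 of 9 in Cyp4a and 3 of 8 in metallothioneins and zinc. Among all autosomal genes the male shares were 0.855% positive and 1.14% negative. Most called genes were in no list, since 175 of the 940 (18.6%) belonged to any of the 49, beside 8.08% of all autosomal genes tested (936), and the lists were chosen with earlier results known. All autosomal genes had a median log2 fold change of 0.01 in females and 0.00 in males.

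**Figure D2:**
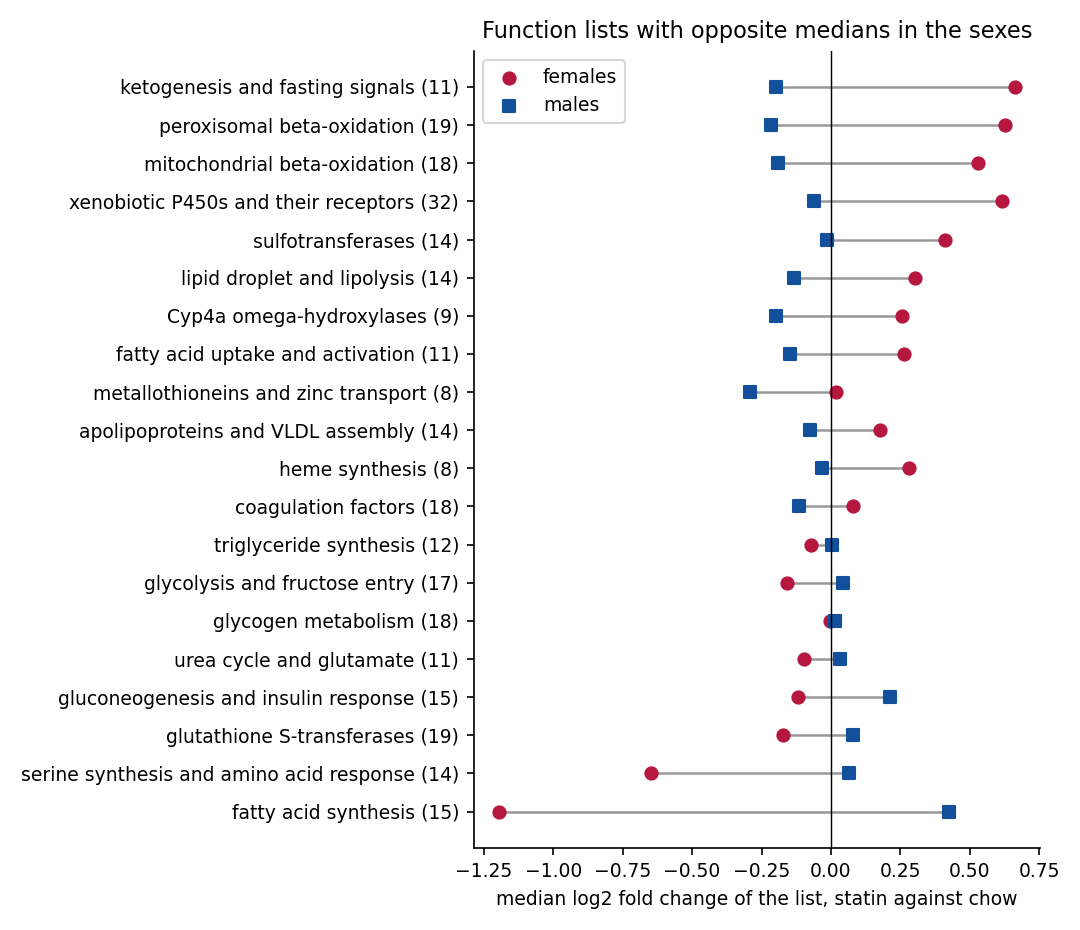
Median log2 fold change (x axis) of the 20 opposite function lists in females (red circles) and males (blue squares), with the number of tested members in parentheses and a line joining the sexes. Fatty acid synthesis has the lowest female median, -1.19, and ketogenesis the highest, 0.66.

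Fatty acid synthesis had the most distant medians of the 20 lists. Of its 15 tested members, 11 were called with a more negative response in females and 0 with a more positive one. The median log2 fold change was -1.19 in females and 0.43 in males, and 13 members were negative in females and positive in males. The reverse held for 2. Without female chow replicate 1, 7 members were called. Without female statin replicate 3 the female median was -0.79, and without male statin replicate 3 the male median was 0.27. The pathway begins with Acly, which cleaves citrate into cytosolic acetyl-CoA, and Acaca, which makes malonyl-CoA. Their fold changes were -2.12 and -1.68 in females and 0.16 and 0.10 in males, so that their difference lay almost wholly in females. Fasn, the synthase itself, stood at 5549, 3136 and 2503 CPM in female chow livers, at 1096, 1763 and 242 in female statin livers, at 321, 246 and 392 in male chow livers and at 533, 287 and 539 in male statin livers. The female livers did not overlap and the male livers did, and the difference in log2 response was -2.35 (SE 0.77, adjusted p = 0.405).

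Elovl6 and Me1 were the members of the list whose livers separated in both sexes. Elovl6 (chromosome 3 of GRCm38, 129532355 to 129638495, plus strand), which elongates palmitate to stearate, read 1442, 1403 and 1091 CPM in female chow livers and 879, 368 and 99.6 in female statin livers. In males it read 89.7, 68.6 and 82.8 on chow and 101, 144 and 229 on statin. The statin livers were all lower in females and all higher in males, with log2 fold changes of -1.55 and 0.97 (difference -2.52, SE 0.78, adjusted p = 0.377). Me1 (chromosome 9, 86581371 to 86695953, minus strand), malic enzyme, which supplies NADPH, also separated in both sexes, in the same directions. Its female livers read 1142, 1094 and 873 CPM on chow and 829.7, 357 and 109 on statin, and its male livers 228, 207 and 170.5 on chow and 286, 475 and 560.3 on statin. The difference in log2 response was -2.39 (SE 0.72, adjusted p = 0.363). Scd1, the stearoyl-CoA desaturase, had -1.48 in females and 0.96 in males. The desaturases of polyunsaturated fatty acids did not share the pattern, with 0.20 and -0.11 for Fads1 and 0.18 and -0.26 for Fads2, neither of them called. The pentose phosphate and NADPH list, which supplies reducing power, was not opposite, with 3 of 9 tested members called negative, 1 positive and medians of -0.23 and -0.01. That description is fragile, since the male median was 0.03 without male statin replicate 2, which made the list opposite, and the female median was -0.46 without female statin replicate 1.

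The steps from fatty acid to triglyceride were mixed, and 1 gene stood apart among them. Of 12 tested members, 2 were called negative and 1 positive, and the list median was near 0 in both sexes (-0.07 and 0.01), so that the opposite description rests on these few members. Lpin1 (chromosome 12, 16535669 to 16610966, minus strand) encodes lipin-1, a phosphatidate phosphatase that makes diacylglycerol. It read 762, 402 and 317 CPM in female chow livers and 179.8, 242 and 60.4 in female statin livers, and 59.2, 49.8 and 125 in male chow livers and 156, 328 and 288 in male statin livers. The groups did not overlap in either sex, with fold changes of -1.62 and 1.72 on the log2 scale and a difference of -3.34 (SE 0.73, adjusted p = 0.259). Gpat3, an acyltransferase at the first step, was called in the other direction (0.83 in females and -0.49 in males).

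Sugar entry followed the direction of fatty acid synthesis in part. Of 17 tested members of the glycolysis and fructose list, 7 were called negative and 2 positive, with medians of -0.16 and 0.04. Without female statin replicate 1 the female median was -0.38 and without replicate 2 it was -0.08, and the male median lay between 0.02 (without male chow replicate 2) and 0.17 (without male chow replicate 3). Called negative were among others Khk, the fructose kinase (-0.85 and 0.50), Gpi1 (-0.92 and 0.13) and Pklr, liver pyruvate kinase (-0.92 and 0.28), with Eno1, Gapdh and Pfkfb3. Pfkfb3 (chromosome 2, 11471433 to 11554077, minus strand) makes fructose 2,6-bisphosphate, an activator of glycolysis. Its levels were 12.9, 15.7 and 9.33 CPM in female chow livers, 7.52, 8.91 and 5.72 in female statin livers, 7.90, 11.5 and 11.1 in male chow livers and 24.2, 20 and 18.7 in male statin livers. Each sex separated, lower with statin in females and higher in males, and the difference was -1.82 (SE 0.31, adjusted p = 0.137). Ldha, lactate dehydrogenase, named after its values were seen, was among those called positive (0.69 and -0.51).

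Oxidation of fatty acids in mitochondria went the other way as a group. Of 18 tested members, 14 were called positive and 0 negative, and the median log2 fold change was 0.53 in females and -0.19 in males. In all, 16 members were positive in females and negative in males, and 0 the reverse. Without female statin replicate 3 the female median was 0.32 with 12 members called. The list runs from Cpt1a, which admits acyl groups to the mitochondrion (0.67 and -0.10), and the carnitine carrier Slc25a20 (0.94 and -0.19) to the dehydrogenases and thiolases. Acadm (chromosome 3, 153922357 to 153944632, minus strand), the medium-chain acyl-CoA dehydrogenase, read 167, 168 and 207 CPM in female chow livers and 278, 233 and 506 in female statin livers, and 323, 347 and 336 in male chow livers and 274, 271 and 240.0 in male statin livers. Statin livers were all above chow livers in females and all below them in males, with a difference of 1.27 (SE 0.33, adjusted p = 0.305). Hadhb, a subunit of the trifunctional protein, separated in the same way (0.70 and -0.33, difference 1.03, SE 0.28). The male fold changes were small for all members, between -0.36 and 0.19, and the only male change with an unadjusted p-value under 0.05 was that of Eci1, an enoyl-CoA isomerase (-0.36).

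Peroxisomes shorten very long fatty acids, and their list behaved alike. Of 19 tested members 11 were called positive and 0 negative, with medians of 0.63 in females and -0.22 in males. Without male statin replicate 3 the male median was -0.09. Crat (chromosome 2, 30400471 to 30415813, minus strand), carnitine acetyltransferase, read 50.5, 34 and 32.3 CPM in female chow livers, 75.9, 98.5 and 115 in female statin livers, 57.1, 60.3 and 60.3 in male chow livers and 55.9, 24.6 and 38.4 in male statin livers. Its groups did not overlap in either sex, and its difference was 1.89 (SE 0.38, adjusted p = 0.202). Pex11a, which divides peroxisomes, rose in females by 0.99 (adjusted p = 0.0382) with 0.02 in males. Acaa1b, a peroxisomal thiolase, had 1.05 and -0.53, and Abcd2, an importer of very long acyl-CoA, 0.91 and -0.29.

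The acyl-CoA thioesterases, which free fatty acids from coenzyme A, held Acot1 and Acot2, both among the 3 autosomal genes with the smallest p-values, but were not an opposite list. Their male median was 0.01, beside 0.70 in females, with 6 of 10 tested members called positive and 0 negative. Without male statin replicate 3 the male median was -0.16. Acot1 (chromosome 12, 84009490 to 84018371, plus strand), the cytosolic enzyme, read 18.2, 9.98 and 11.7 CPM in female chow livers and 44.7, 53.2 and 78.5 in female statin livers. In males it read 22.6, 20 and 18.2 on chow and 19.7, 13.2 and 12 on statin. It rose in females (2.14, adjusted p = 0.0306), the male livers overlapped (-0.44), and the difference was 2.58 (SE 0.38, adjusted p = 0.0997). Acot2, its mitochondrial neighbour, rose by 1.66 in females (adjusted p = 0.0306) beside -0.35 in males. Reads may be shared between these similar genes. Acot12, a cytosolic enzyme that acts on acetyl-CoA, separated in both sexes (0.81 and -0.15, difference 0.97, SE 0.19, adjusted p = 0.194).

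Ketone body synthesis and the hormones of fasting were also opposite, with 8 of 11 tested members called positive, 0 negative and medians of 0.66 and -0.20, the latter -0.13 without male chow replicate 2. Fgf21 (chromosome 7, 45613886 to 45615490, minus strand), a hormone released by the fasting liver, was low, with 1.81, 1.54 and 0.698 CPM in female chow livers and 3.80, 2.84 and 2.34 in female statin livers. In males it was 2.26, 1.93 and 1.46 on chow and 1.19, 1.04 and 0.934 on statin. Its levels did not overlap between the diets in either sex, and the difference was 1.98 (SE 0.46, adjusted p = 0.277). Creb3l3, a transcription factor of the fasted liver, had 0.69 and -0.07. Angptl4, Pdk4 and Ppargc1a, which also belong to the fasting response, were not called.

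**Figure D3:**
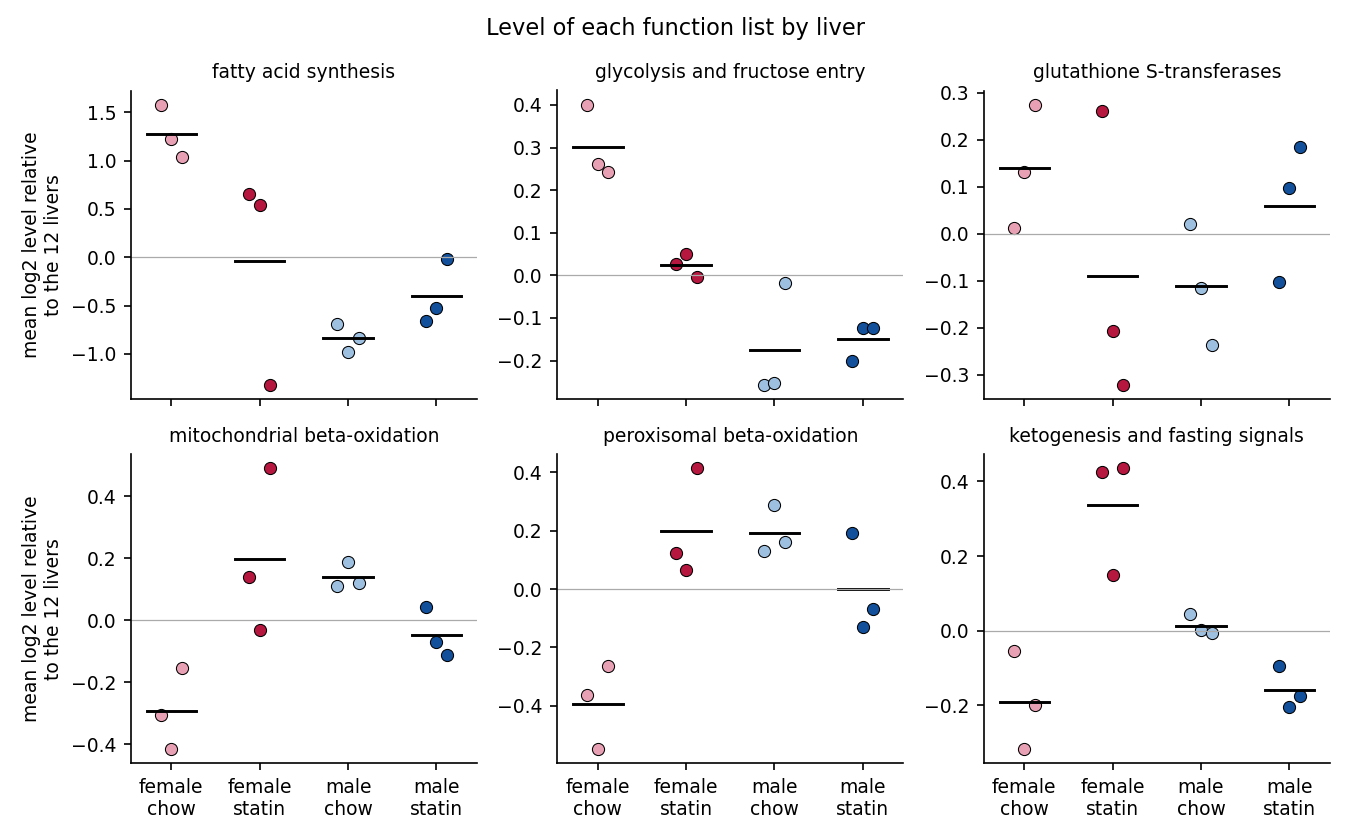
Mean log2 level of the members of 6 function lists in each of the 12 livers relative to the mean of all livers (y axis), by group, with points for livers and bars for group means. In fatty acid synthesis, female statin replicate 3 is the lowest of all livers, at -1.33, and the other two female statin livers are at 0.66 and 0.54.

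Hydroxylation, uptake and storage of fatty acids were opposite with fewer members. Cyp4a and Cyp4f genes, whose products hydroxylate fatty acids at their far end, had 4 of 9 tested members called positive (medians 0.26 and -0.20). The female median was 0.40 without female chow replicate 3, and the male median -0.06 without male statin replicate 3 and -0.43 without male statin replicate 1. Cyp4a31 read 10, 6.26 and 7.44 CPM in female chow livers, 20.7, 20.1 and 52.6 in female statin livers, 9.56, 6.86 and 11.5 in male chow livers and 8.27, 6.23 and 3.68 in male statin livers. The female livers separated and the male livers overlapped, with a difference of 2.59 (SE 0.55, adjusted p = 0.24). Cyp4a10 and Cyp4a14 had differences of 1.62 and 1.69, which were 1.06 and 1.08 without female statin replicate 3. The male-specific Cyp4a12a (-0.12 and -0.19) was not called.

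Slc27a1 (chromosome 8, 71568882 to 71587302, plus strand), a fatty acid transport protein, had the smallest p-value of all autosomal genes. Its levels were 5.25, 3.94 and 5.89 CPM in female chow livers, 10.3, 9.92 and 12.7 in female statin livers, 7.47, 8.48 and 9.56 in male chow livers and 5.87, 6.09 and 5.35 in male statin livers. The livers of each sex separated, in opposite directions, and the difference was 1.69 (SE 0.24, adjusted p = 0.0997). In its list of 11 genes 3 were called positive and 2 negative, among them Fabp1, the fatty acid binding protein of liver (0.77 and -0.11), and in the other direction Acsl5 (-0.63 and 0.22). The number called was 2 without female chow replicate 1, and the medians of 0.26 and -0.15 were 0.12 without female statin replicate 2 and -0.06 without male statin replicate 2. Of 14 lipid droplet and lipolysis genes 6 were called positive and 0 negative, and 3 without female chow replicate 2. Their medians of 0.30 and -0.13 were 0.52 without female chow replicate 1 and -0.05 without male statin replicate 2. They were the monoglyceride lipase Mgll (0.80 and -0.41), Cidec, Fitm1, Fitm2, Lipe and G0s2.

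Among 14 apolipoprotein and VLDL genes 2 were called, both positive, and the list kept its description in 18 of 22 alternative settings. Apoa4, a protein of chylomicrons and fasting liver (chromosome 9, 46240696 to 46243459, plus strand), read 1890.3, 1542 and 1666 CPM in female chow livers, 3235, 1732 and 3552 in female statin livers, 1802, 2174 and 2459.8 in male chow livers and 899.8, 1064 and 1139 in male statin livers. The male groups were apart and the female groups overlapped, with fold changes of -1.05 in males and 0.74 in females and a difference of 1.79 (SE 0.34, adjusted p = 0.172). Apoa1, the main protein of HDL, had 0.46 in females and -0.62 in males.

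**Figure D4:**
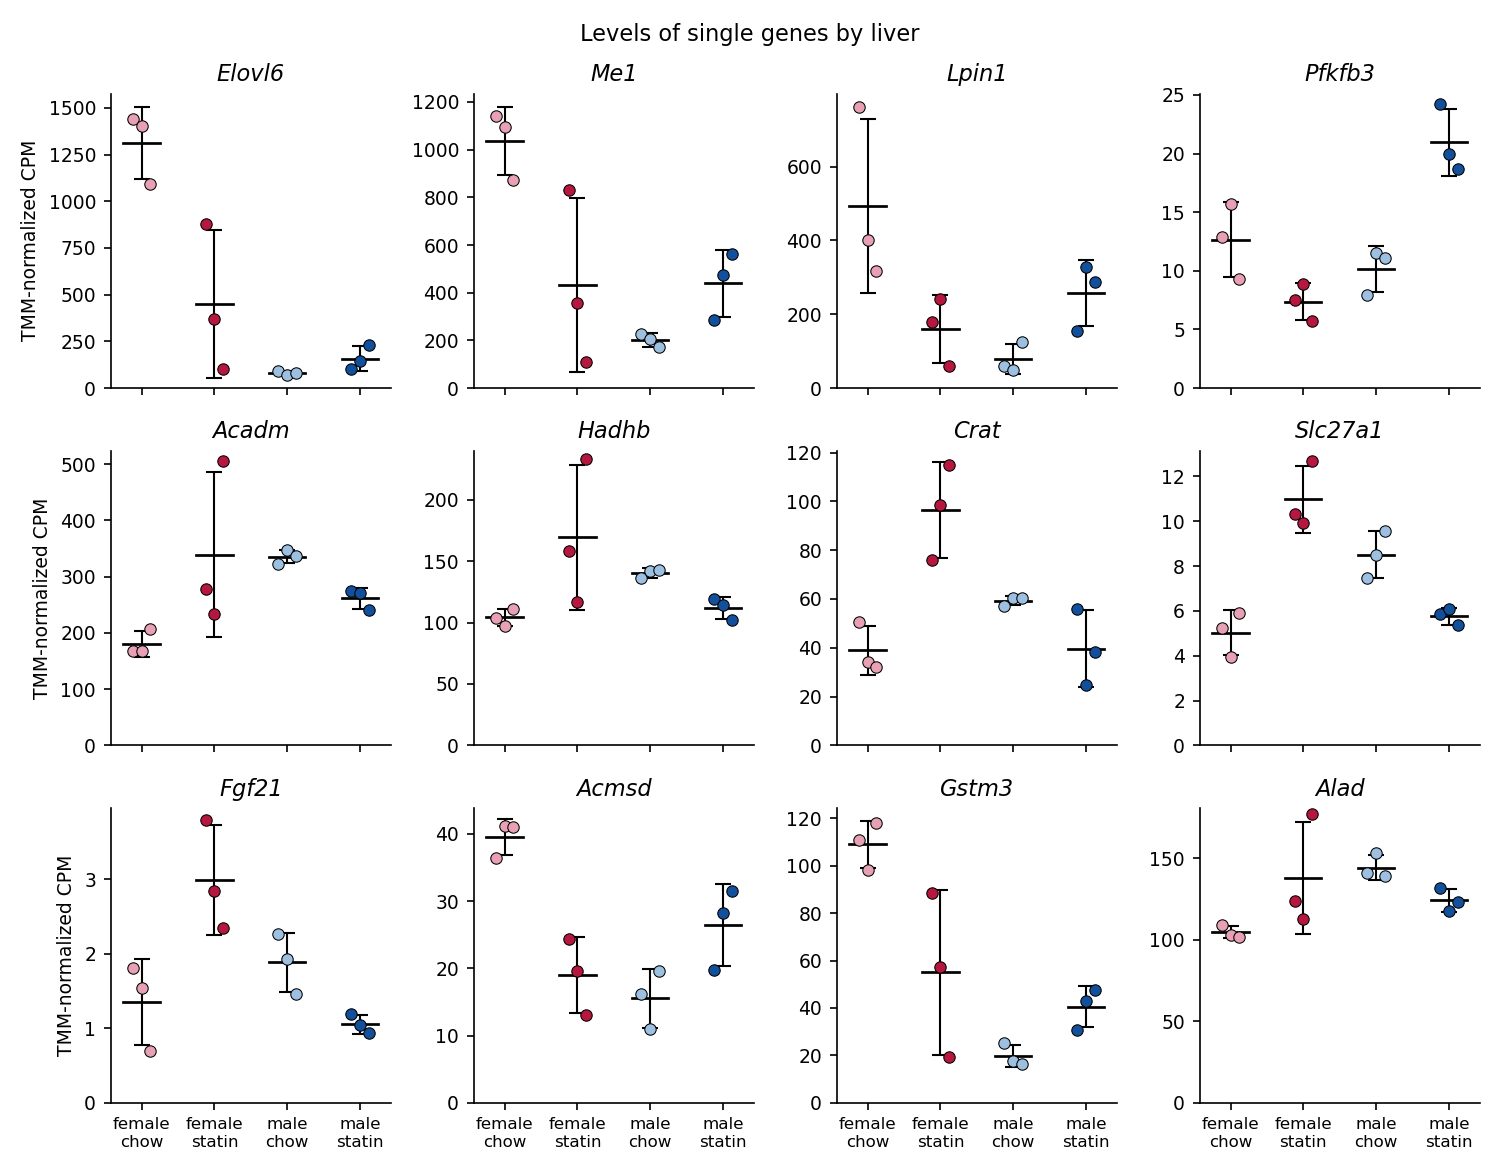
TMM-normalized CPM of 12 genes in each liver (points), with the group mean (bar) and SD (n = 3). For each gene the statin livers lie beyond the chow livers in opposite directions in the sexes, as for Elovl6, lower in females and higher in males, and Acadm, the reverse.

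The regions just upstream of the genes in 6 of these lists (fatty acid synthesis, both oxidation lists, thioesterases, Cyp4a and ketogenesis) were searched for 4 motifs on both strands, in the 250 bases before the RefSeq transcription start of GRCm38.p6. Among the members named by the rules, 7 had livers that separated oppositely in both sexes, and 6 of these had such a window (not Crat). Acadl, Acaa2 and Ech1, other genes of fatty acid oxidation, also separated oppositely but were not among the named genes and are not shown. A match is a description of the letters and not a binding site. CACGTG, an E-box, was in 8.57% of 9044 tested genes' windows and in 2 of 12 windows of fatty acid synthesis genes and 0 of 16 of mitochondrial oxidation genes, and in 0 of 14 peroxisomal, 1 of 8 thioesterase, 0 of 4 Cyp4a and 1 of 6 ketogenesis windows. AGGTCA, the core hexamer bound by nuclear receptors, was in 10.8% of all windows, in 2 of 12 and in 3 of 16, and in 3 of 14 peroxisomal, 2 of 8 thioesterase, 0 of 4 Cyp4a and 1 of 6 ketogenesis windows. TCACNCCAC, a sterol element, was in 1.05% of all windows, in 0 of both lists and in 1 of 14 peroxisomal windows (Ehhadh), and in 0 of the other lists. A direct repeat of that hexamer spaced by 1 base, with 1 base left free in each copy, can overlap AGGTCA and was in 0.299% of all windows and, among the 6 lists, in the ketogenesis window of Gdf15 alone. The windows of the 4 named genes with a match are shown 5′ to 3′ on the gene's strand. The matched letters are in capitals (AGGTCA reads TGACCT on the other strand).

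Elovl6, chr3:129532136-129532385, plus strand: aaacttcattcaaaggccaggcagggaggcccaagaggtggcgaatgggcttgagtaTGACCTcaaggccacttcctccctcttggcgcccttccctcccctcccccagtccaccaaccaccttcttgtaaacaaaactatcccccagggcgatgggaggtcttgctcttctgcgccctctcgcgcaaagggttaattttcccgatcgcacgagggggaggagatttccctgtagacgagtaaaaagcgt
Acadm, chr3:153944644-153944893, minus strand: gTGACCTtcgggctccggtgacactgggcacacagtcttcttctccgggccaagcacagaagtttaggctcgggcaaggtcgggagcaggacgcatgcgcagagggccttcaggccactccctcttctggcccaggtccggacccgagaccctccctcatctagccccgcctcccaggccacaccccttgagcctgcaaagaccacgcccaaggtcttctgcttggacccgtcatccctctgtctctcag
Acot12, chr13:91741271-91741520, plus strand: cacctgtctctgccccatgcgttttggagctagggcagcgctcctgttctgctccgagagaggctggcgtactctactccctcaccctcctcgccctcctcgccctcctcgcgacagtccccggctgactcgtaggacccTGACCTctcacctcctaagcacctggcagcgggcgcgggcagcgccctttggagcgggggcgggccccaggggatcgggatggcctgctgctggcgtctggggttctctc
Fgf21, chr7:45615491-45615740, minus strand: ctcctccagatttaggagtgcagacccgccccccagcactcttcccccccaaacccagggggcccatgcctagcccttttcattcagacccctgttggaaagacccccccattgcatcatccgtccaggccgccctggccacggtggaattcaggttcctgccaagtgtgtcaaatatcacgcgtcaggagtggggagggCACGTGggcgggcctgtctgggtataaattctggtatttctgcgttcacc

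The AGGTCA hexamer was in the windows of Elovl6, which was lower with statin in females, and of Acadm and Acot12, which were higher, and the E-box was in that of Fgf21.

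Enzymes of foreign compound metabolism split between the lists. Of 32 cytochrome P450s and receptors for foreign compounds 10 were called positive and 0 negative, with medians of 0.62 in females and -0.06 in males. The female median was 0.34 without female statin replicate 3, and the male median 0.04 without male statin replicate 3. Nr1i3, the receptor CAR, had 1.21 and -0.33, Cyp3a59 0.81 and -0.91, and Cyp2c54 1.70 and -0.12, its difference of 1.81 becoming 1.13 without female statin replicate 3. Members of these clusters are close in sequence and may share reads.

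The glutathione S-transferases, which attach glutathione to electrophiles, were opposite in the other direction. Of 19 tested members 6 were called negative and 0 positive (medians -0.17 and 0.08), 5 of them from the Gstm cluster of chromosome 3. The female median was -0.36 without female statin replicate 1 and -0.05 without female chow replicate 3, and the male median was 0.24 without male chow replicate 1. Without male chow replicate 3, 3 members were called. Gstm3 (107963696 to 107969283, minus strand) read 111, 98.4 and 118 CPM in female chow livers, 88.6, 57.1 and 19.3 in female statin livers, 25.2, 17.5 and 16.5 in male chow livers and 30.8, 43.0 and 47.7 in male statin livers. The diets were separate in each sex and the difference was -2.03 (SE 0.56, adjusted p = 0.319), and the near-identical Gstm genes may share reads. Gstp1, outside the cluster, had -0.37 and 0.43. Among 16 targets of Nrf2, the oxidant-response factor, 0 were called in either direction, but 5 without male statin replicate 1 and 4 without female statin replicate 1.

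Amino acid pathways had smaller counts. Serine synthesis and the amino acid response had 4 of 14 tested members called negative and 0 positive (medians -0.65 and 0.07), with 1 to 6 called when a liver was left out. They were Psat1, Psph, Atf5 and Aldh18a1, and of these only Psat1 was positive in males (1.13). Gluconeogenesis and the insulin response had 4 of 15 called negative and 1 positive, or 2 in all without female chow replicate 1. Its medians of -0.12 and 0.21 were -0.004 without female chow replicate 3 and 0.36 without male chow replicate 3. Got1 and Tat, which transaminate aspartate and tyrosine, had -1.07 and 0.63, and -0.91 and 0.50, while the gluconeogenic enzymes Pck1 and G6pc were not called (-0.22 and 0.63, -0.12 and 0.56). Among 11 urea cycle and glutamate genes 2 were called negative and 2 positive (medians -0.10 and 0.03), so that its share was as high in the direction against its medians. Glycogen genes had medians near 0 (0.00 and 0.01), with 2 of 18 called negative and 1 positive, and kept the description in 9 of 22 alternative settings.

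Heme synthesis, metals, clotting factors and sulfotransferases rested on 2 or 3 members each in the direction described. Their medians in females and males, near 0 in at least 1 sex, were 0.28 and -0.03 for heme synthesis and 0.02 and -0.29 for metals. For clotting factors they were 0.08 and -0.115, and for sulfotransferases 0.41 and -0.015. Alad and Cpox, enzymes of heme synthesis, were the 2 of 8 called, with 0.40 and -0.22 for Alad and 0.90 and -0.13 for Cpox. The Alad difference of 0.62 was 0.40 without female statin replicate 3. Of 8 metallothionein and zinc genes 3 were called positive and 1 negative. Mt2, a metal-binding protein, read 268, 308 and 151 CPM in female chow livers, 103, 235 and 322 in female statin livers, 90.5, 111 and 77.8 in male chow livers and 36.9, 39.4 and 24.7 in male statin livers, so that the males separated and the females overlapped (-0.14 and -1.47, difference 1.33, SE 0.52). Mt1 had 0.34 and -0.97, and its female livers also overlapped. The female sign of Mt1 was lost without female statin replicate 3, and that of Mt2 without female chow replicate 2 or female statin replicate 1. Of 18 clotting factors 3 were called positive. Without female statin replicate 3, 1 clotting factor was called, and without replicate 1, 5. The clotting list kept its description in 15 of 22 settings and the metallothionein and zinc list in 17. Of 14 sulfotransferases 2 were called, and the list kept its description in 14 of 22 settings.

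Genes outside the lists made up most of the called genes. Among the 8 with the smallest p-values in each direction were Rab30, a Golgi GTPase (1.27 in females, adjusted p = 0.0310, and -0.33 in males), and Tlr12, a receptor for profilin (1.12, adjusted p = 0.0382, and -0.25), both separated in each sex. In the other direction Tbc1d8 fell in females (-1.20, adjusted p = 0.0357) with 0.33 in males. Acpp, an acid phosphatase, had -1.48 and 0.62, Fam198a -1.64 and 0.56, Mbd1, a reader of methylated DNA, -0.86 and 0.29, Slc17a4, a phosphate transporter, -1.01 and 0.35, and Olfm3 -0.52 and 0.54. Acmsd (chromosome 1, 127729413 to 127767978, plus strand), which diverts tryptophan carbon away from NAD synthesis, read 36.4, 41.2 and 41.0 CPM in female chow livers, 24.3, 19.6 and 13 in female statin livers, 16.2, 10.9 and 19.6 in male chow livers and 19.7, 28.2 and 31.5 in male statin livers. Its diets did not overlap in either sex and the difference was -1.82 (SE 0.36, adjusted p = 0.194).

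The pathway that simvastatin inhibits was not opposite. Of 19 cholesterol synthesis genes 1 was called positive and 1 negative, the latter Pmvk, phosphomevalonate kinase (-0.72 and 0.63), with medians of -0.05 in females and 0.17 in males. Without female statin replicate 1 the female median was -0.42, and without replicate 2 it was 0.18. The male median was -0.21 without male statin replicate 3 and 0.40 without male statin replicate 2. Sqle, squalene epoxidase, read 229, 172 and 92.1 CPM in female chow livers, 162, 105 and 83.1 in female statin livers, 65.3, 34.2 and 54.5 in male chow livers and 46.1, 45.3 and 120 in male statin livers. The groups overlapped within each sex, and the difference was -0.95 (SE 0.60, adjusted p = 0.813), or -0.33 without male statin replicate 3. Hmgcs1, the cytosolic synthase of the same pathway, had a difference of -0.05 (SE 0.61, adjusted p = 0.998).

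One gene of the next step stood apart. Of 17 bile acid genes 1 was called in each direction, but 8 were called without female statin replicate 2. Cyp7a1 (chromosome 4, 6265612 to 6275633, minus strand), the rate-limiting enzyme of bile acid synthesis and named here after its values were seen, read 65.0, 44.6 and 57.8 CPM in female chow livers, 142, 153 and 621 in female statin livers, 176, 191 and 257 in male chow livers and 99.6, 131 and 164 in male statin livers. Its diets separated in both sexes, with 2.45 and -0.66 and a difference of 3.11 (SE 0.67, adjusted p = 0.240). The female fold change was 1.42 and the difference 2.07 without female statin replicate 3, its highest liver.

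Complex I and cytosolic ribosomal protein genes leaned towards 1 pattern of signs but had no member called, while 1 of 39 subunits of complexes II to V and 1 of 77 mitochondrial ribosomal proteins were called negative. Opposite signs in either direction were seen in 54.4% of all autosomal genes. Among the 34 nuclear complex I subunits 20 were negative in females and positive in males and 2 the reverse, with 0 called and medians of -0.10 and 0.09. Among 71 cytosolic ribosomal proteins 45 were and 1 the reverse, with 0 called and medians of -0.06 and 0.11. Both female medians turned positive without female statin replicate 2 (0.06 and 0.11), and both male medians turned negative without male statin replicate 3 (-0.05 and -0.13). Of 36 proteasome subunits 2 were called negative, with medians of -0.29 and 0.02, and without female statin replicate 1 the number was 10.

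The difference between the responses is also the change in the gap between the sexes. Because the interaction and the sex difference on chow share the chow livers, the values stand side by side with no test of their relation. On chow, the fatty acid synthesis genes were higher in females by a median of 2.36 on the log2 scale, and 14 of 15 members were higher in females. On statin the median was 0.41, and 12 were higher. The list's mean log2 levels, relative to the mean of all livers, were 0.66, 0.54 and -1.33 in female statin livers. They were -0.66, -0.53 and -0.02 in male statin livers. Female statin replicate 3 thus lay below all male statin livers, and female statin replicates 1 and 2 lay above them. The median gap without female statin replicate 3 is not given here. Mitochondrial oxidation genes were lower in females on chow by a median of -0.43, with 1 of 18 higher in females, and on statin the median was 0.20 with 17 of 18 higher. For peroxisomal oxidation the medians were -0.60 and 0.13, with 2 and then 15 of 19 genes higher in females. For all autosomal genes both medians were -0.01. Lists of established female-biased and male-biased liver genes had medians of 2.45 and -4.36 on chow and 2.87 and -3.54 on statin, so that the sexes stayed far apart in these on both diets.

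**Figure D5:**
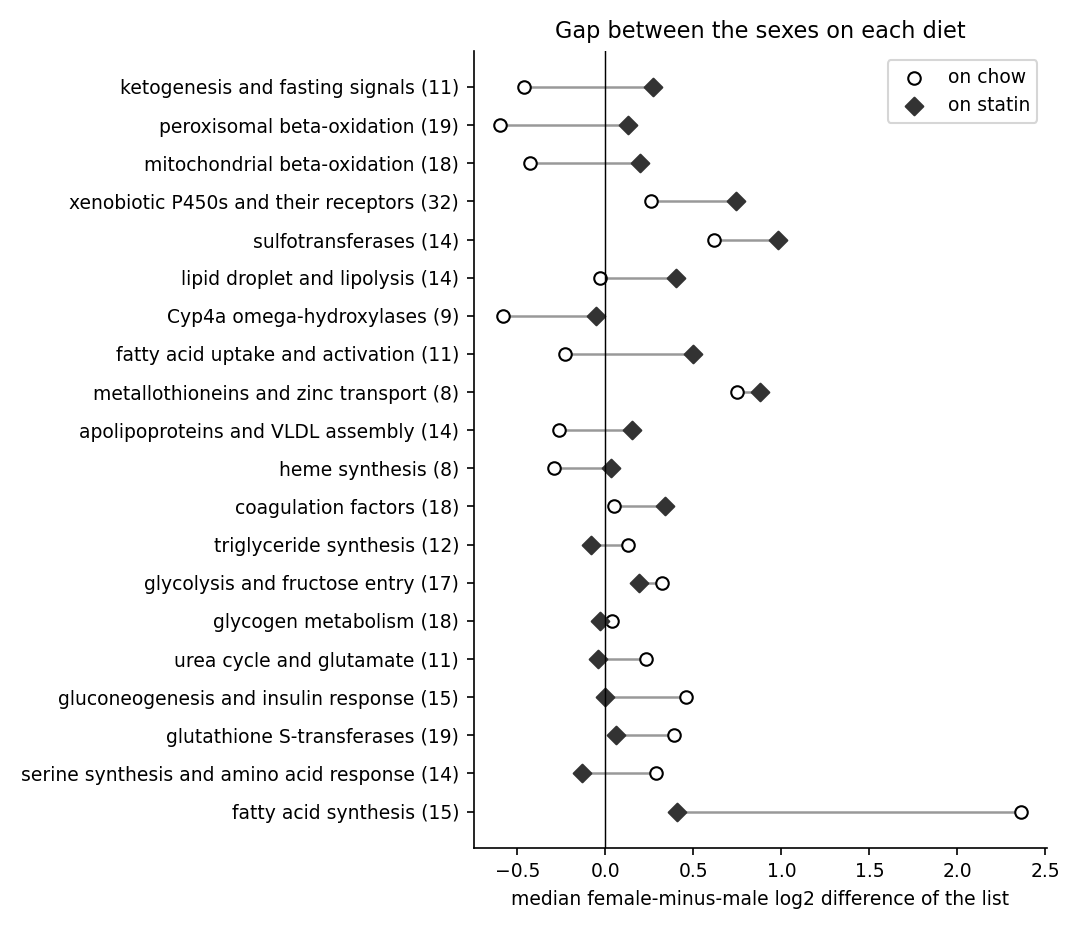
Median female-minus-male log2 difference (x axis) of the 20 opposite function lists on chow (open circles) and on statin (filled diamonds), with the number of tested members in parentheses. Fatty acid synthesis moves from 2.36 to 0.41 and mitochondrial beta-oxidation crosses from -0.43 to 0.20. The female statin livers differed widely in fatty acid synthesis. Their mean log2 levels, relative to the mean of all livers, were 0.66, 0.54 and, in replicate 3, -1.33.

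Summed levels of 11 Kupffer cell markers were between 731 and 906 CPM in female chow livers, 614 and 1047 in female statin livers, 397 and 639 in male chow livers and 411 and 511 in male statin livers. Of its 10 tested members 9 were positive in females and negative in males and 0 the reverse, with 0 called. Of 9 sinusoidal endothelial markers 0 were called, of 9 stellate cell markers 1 was called positive (Rgs5), and of 3 tested cholangiocyte markers 1 was. Of 8 hepatocyte markers 2 were called positive (Apoa1 and Trf) and 1 negative (Tat), and Apoa1 and Tat also belong to lists above. Markers of pericentral hepatocytes, the zone richest in P450 enzymes, summed to 4965 to 5754 CPM in female chow livers and 7076 to 8151 in female statin livers, which did not overlap, and to 10039.6 to 12750.4 in male chow livers and 9018 to 13039.5 in male statin livers, which did. Of these 10 markers 1 was called, positive. Periportal markers overlapped in both sexes, with 2 of 9 called in opposite directions. The only tested member of the lymphocyte list (0.86 and -0.72) and of the neutrophil list (0.15 and -0.50) were both called positive, and the summed levels of these lists stayed at or below 10.3 and 7.95 CPM in every liver. Red cell markers summed to 125 to 239 CPM in female statin livers and 69.7 to 160 in male statin livers, with 0 of 4 called. Their part in the results was not tested.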

How the data were processed

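Liver RNA from 12 mice was sequenced with strand-specific libraries. Per the labels, the authors aligned reads with STAR 2.4.1a to GRCm38, counted them per gene with HTSeq and used edgeR 3.28.1. They deposited raw counts of 11968 genes, in a file described as normalized, and CPM of 48526 genes. The CPM values gave whole reads for 100% of entries (tolerance 0.01 reads), and a threshold of more than 1 CPM in 6 or more livers gave exactly the genes of the count table. That filter left out 13564 autosomal genes with a read.

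The counts were fitted with edgeR 4.0.16 (R 4.3.3; TMM, 4 group means, quasi-likelihood test), and p-values were adjusted by Benjamini-Hochberg over all 11968 genes. Fold changes are log2, and the values of single genes printed per liver are TMM-normalized CPM. Summed marker levels are CPM without TMM. Positions are from GENCODE on GRCm38, and upstream windows from RefSeq. Named genes were the 8 protein-coding genes with the smallest interaction p-values and opposite signs in each direction (leaving out symbols of predicted and Riken genes), the 4 members with the smallest p-values in each opposite list, and a few fixed by name, among them Hmgcs1, Sqle, Apoa4 and Gstm3. Some genes that these rules name are not reported here. Other genes named were added after their values were seen. The genes, lists and tests were chosen with earlier results of these data known. Alternatives were DESeq2 1.42.0, limma 3.58.1, other scalings and filters, a replicate block, a transcript length offset and each liver left out. On simulated data for this comparison (11968 genes, 200 changed), edgeR recovered 77 changed genes at a log2 size of 1 and 190 at 2, with 2 and 12 false calls, and DESeq2 84 and 192, with 14 and 26. In the simulation only female statin livers changed, the groups were otherwise equal, and counts were drawn independently for each liver. It therefore does not give the recovery for changes in both sexes or for livers that share an axis of variation. Whether counting used strand is not given in the sources used here, so overlapping genes may share reads, among them Apoa4, Crat, Me1, Elovl6, Pfkfb3, Acot12, Acmsd and Tbc1d8.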

Additional observations from a re-analysis of the deposited data

Results flagged for a closer look

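For 20 genes named by the rule, every statin liver lay beyond every chow liver in one direction in females and in the opposite direction in males. None passed an adjusted p-value under 0.05 for the difference (edgeR), which is given here on the log2 scale as the female minus the male response. The call changed with the setting, and 18 of the 20 passed in at least 1 alternative (16 with DESeq2, 15 with no filter on low counts, 5 without female statin replicate 2), Hadhb and Alad in none. The difference was positive for Slc27a1 (1.69), Rab30 (1.61), Tlr12 (1.37), Acot12 (0.97), Crat (1.89), Acadm (1.27), Hadhb (1.03), Fgf21 (1.98), Slc39a5, a zinc transporter (1.41), and Alad (0.62). It was negative for Pfkfb3 (-1.82), Acpp (-2.10), Mbd1 (-1.15), Acmsd (-1.82), Slc17a4 (-1.36), Olfm3 (-1.06), Me1 (-2.39), Elovl6 (-2.52), Lpin1 (-3.34) and Gstm3 (-2.03). Cyp7a1, named after its values were seen, separated in the same way (difference 3.11, or 2.07 without female statin replicate 3). Of all autosomal genes, 0.622% separated upward in females and downward in males, and 0.501% the reverse.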

How the results depend on the processing

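The count of genes at an adjusted p-value under 0.05 was 0 in edgeR, 120 with DESeq2 and 101 with no filter on low counts, and between 0 and 14 when 1 liver was left out (14 without female statin replicate 2). With no filter, 824 genes were called positive and 760 were positive in females and negative in males. Leaving out 1 liver gave 383 to 783 genes called positive, 284 to 628 called negative, 353 to 708 positive in females and negative in males, 267 to 581 the reverse and 17 to 24 opposite lists. Replicate numbers did not pair the livers (mean r -0.109 over 18 same-numbered pairs, 5 of them over 0.1), and with a replicate block the counts were 459 and 332 with 19 opposite lists. Scaling by library size alone gave 441 positive and 467 negative calls, against 539 and 401. It gave 404 genes positive in females and negative in males and 432 the reverse, against 496 and 373, so that the larger direction changed. A transcript length offset, chosen after seeing the data, gave 579 positive and 486 negative calls. The difference of Hmgcs1, near 0, reversed, and was 0.054 with limma and between -0.551 and 0.568 when 1 liver was left out. The cause was not tested. With 3 livers a group, the median SE of a difference was 0.269.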
